A study of Mus musculus with 6 samples.

Results

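The genes of mouse chromosome 7 were followed through the libraries of a skin carcinogenesis series. The chromosome carries Hras1, the gene that encodes the small GTPase H-Ras. Members were all rows of the deposited gene table on chromosome 7 (build mm9) with a mean of at least 5 CPM (counts scaled to a common library total) over the 6 libraries. Of 2208 chromosome 7 rows, 850 reached the minimum, out of 23726 rows in all. The other 1358 rows did not, and 695 of these had no count in any library. The chromosome was chosen by measured values, namely the ratios of its genes to skin in the papillomas, so every papilloma-to-skin value below is a description and has no test. At the threshold, Atg16l2 was just outside at a mean of 4.99 CPM and Cpeb1 just inside at 5.02 CPM, and neither was above skin in either papilloma. The threshold acts on the mean of all libraries: 783 members reached 5 CPM both in skin and in the papilloma mean, 22 only in the papilloma mean, 31 only in skin and 14 in neither.

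The biopsies were 1 total healthy skin, 2 distinct DMBA/TPA-induced papillomas and 1 DMBA/TPA-induced tumour. The cultured cells were mSCC-20, described as non-tumorigenic, and mSCC-38, described as highly tumorigenic, both grown from DMBA/TPA tumour. Strain, age and genotype are not given, and neither is whether the papillomas came from separate mice, so their spread may leave out differences between mice. Skin, tumour and each culture have 1 library, so their values carry no replicate error, and a biopsy mixes every cell type of the tissue.

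DMBA mutates DNA, and repeated TPA, which activates protein kinase C, then makes keratinocytes proliferate. Papillomas of this protocol classically start from an activating mutation of Hras in a keratinocyte, and extra copies of the chromosome that carries the mutant allele are a well-known feature of the model. RNA-seq of the kind used here counts transcripts. DNA was not measured, and a median over many genes of a chromosome describes their RNA.

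Total counts ran from 25140489 in papilloma 1 to 42992597 in the tumour, and RNA integrity numbers from 7.5 in skin to 9.6 in mSCC-38, with 8.4 and 8.2 in the papillomas. Keratinocyte markers (12 genes on other chromosomes) summed to 17037 CPM in skin, 68992 and 54336 in papilloma 1 and papilloma 2, 36177 in the tumour, 18404 in mSCC-20 and 11462 in mSCC-38. Muscle markers (14 genes) summed to 12432 CPM in skin, to between 871 and 2327 in the other biopsies and to 12.6 and 14.8 in mSCC-20 and mSCC-38. Hair follicle markers (16 genes) separated the papillomas, with 22331 CPM in skin, 126 in papilloma 1, 6371 in papilloma 2 and 40.7 in the tumour. Immune markers (14 genes) summed to 968 CPM in skin, 821 and 728 in the papillomas, 1362 in the tumour, and 11.4 and 27.5 in mSCC-20 and mSCC-38. Fewer cells of a type and less RNA per cell cannot be told apart in these biopsies.

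Upstream sequences are shown for 3 members: Hras1, and the epidermal neighbours Dmkn and Krtdap, whose transcripts were high in both papillomas and low in the tumour. They are the 250 bases before the RefSeq start of each gene in build GRCm38.p6, 5′ to 3′ in the direction of the gene, a different build from the mm9 positions used elsewhere. Capitals mark TGACTCA, the element bound by the AP-1 factors that TPA activates, and GGGCGG, the GC box, on either strand. The 2 motifs do not overlap each other.
Hras1 (RefSeq Hras, chr7:141194005-141194254, minus strand): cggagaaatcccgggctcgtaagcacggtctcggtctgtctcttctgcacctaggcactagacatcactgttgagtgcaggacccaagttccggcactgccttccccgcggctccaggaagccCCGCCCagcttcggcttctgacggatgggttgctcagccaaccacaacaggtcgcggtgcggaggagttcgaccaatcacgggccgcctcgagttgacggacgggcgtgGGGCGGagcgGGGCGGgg
Dmkn (chr7:30763506-30763755, plus strand): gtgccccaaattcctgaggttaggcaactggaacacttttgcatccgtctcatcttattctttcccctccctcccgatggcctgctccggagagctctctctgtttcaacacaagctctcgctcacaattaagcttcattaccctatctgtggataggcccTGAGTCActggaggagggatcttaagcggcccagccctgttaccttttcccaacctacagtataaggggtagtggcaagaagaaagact
Krtdap (chr7:30787655-30787904, plus strand): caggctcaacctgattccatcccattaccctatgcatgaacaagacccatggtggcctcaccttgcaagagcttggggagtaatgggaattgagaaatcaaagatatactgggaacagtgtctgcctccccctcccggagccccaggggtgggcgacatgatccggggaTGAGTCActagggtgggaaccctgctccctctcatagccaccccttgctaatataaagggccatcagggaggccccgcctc
The Hras1 sequence held 3 GC boxes and no TGACTCA, while those of Dmkn and Krtdap each held 1 TGACTCA and no GC box. Other epidermal members high in the papillomas differed from these 2. The upstream sequences of Klk5, Klk6, Klk9, Klk10, Klk12, Klk13, Klk14 and Lgals7 held no TGACTCA. That of Hamp2, the lowest member in the papillomas against skin, held 1. Hamp2 reached the minimum of 5 CPM only through its skin level, which favours that low place. A link of the motif to the papilloma levels was not tested. Among all 27025 RefSeq promoters, 4.43% of the same-length windows held TGACTCA and 32.9% held GGGCGG. Among the 718 members with a matched promoter, 25 held TGACTCA (3.48%) and 439 held GGGCGG (61.1%), against 3.48% and 60.6% of 8211 matched members of the other autosomes. Neither motif set the promoters of chromosome 7 members apart from those of other autosomal genes at the same minimum.

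Both papillomas had chromosome 7 above the other autosomes, by nearly the same amount. For each gene the log2 ratio of its TMM-scaled CPM to skin was taken (0.5 CPM added to each side), and the median over 10474 genes of the 18 other autosomes was subtracted. The result is called the centred log2 ratio. It understates changes of low genes, and any scaling factor cancels in it apart from the added 0.5 CPM. Before centring, that other-autosome median was 0.06 in papilloma 1, 0.04 in papilloma 2 and 0.10 in the tumour with TMM scaling, and -0.43, -0.29 and -0.19 with scaling by total counts, so small differences in CPM from skin depend on the scaling. The chromosome 7 median was 0.20 in papilloma 1 and 0.20 in papilloma 2 (mean 0.20 ± 0.0062, SD, n = 2), a 1.15-fold level in each. It was 0.04 in the tumour, -0.06 in mSCC-20 and -0.21 in mSCC-38. For scale, a ratio of 3 copies to 2 is 0.58 in log2. Chromosome 7 was the highest of 19 autosomes in both papillomas, the 6th in the tumour, the 11th in mSCC-20 and the lowest in mSCC-38.

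The other autosomes lay within a narrow band in the papillomas and a wider one elsewhere. In papilloma 1 they ran from -0.13 (chromosome 17) to 0.11 (chromosome 18), and in papilloma 2 from -0.14 to 0.13 on the same chromosomes. In the tumour the band reached from -0.25 on chromosome 9 to 0.52 on chromosome 1. The cultures reached 0.52 on chromosome 19 in mSCC-20 and 0.45 on chromosome 6 in mSCC-38. The chromosome 7 value of the papillomas thus stood outside the band of the other autosomes, while those of the tumour and mSCC-20 fell inside it.

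**Figure D1:**
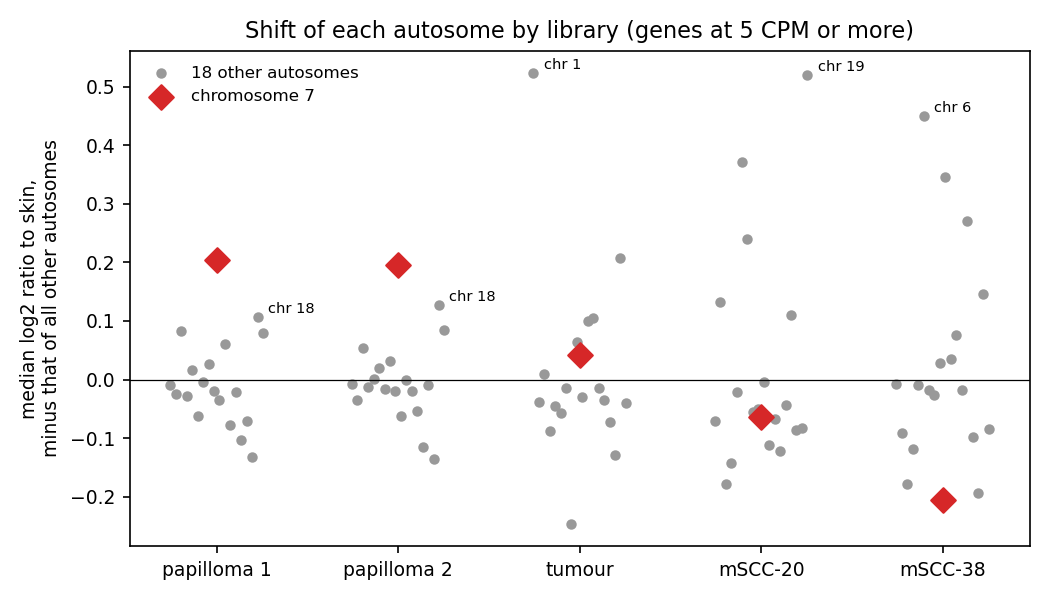
Median log2 ratio to skin of each autosome in each library (y axis, log2), after subtraction of the median of all other autosomes; the red diamond is chromosome 7 and grey points are the 18 other autosomes, with the highest of them named. Chromosome 7 is at 0.20 above every other autosome in both papillomas and at -0.21 below every other one in mSCC-38.

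The displacement covered most of the distribution. The lower quartile of chromosome 7 genes lay 0.20 above that of the other autosomes in papilloma 1 and 0.19 above in papilloma 2, and the upper quartile 0.33 and 0.27 above. A centred ratio above 0 was found for 518 of 850 members (60.9%) in papilloma 1, 525 (61.8%) in papilloma 2, 445 (52.4%) in the tumour, 403 (47.4%) in mSCC-20 and 339 (39.9%) in mSCC-38, where the other autosomes have 50% by construction. Both papillomas were above 0 for 483 members (56.8%), against 45.5% of the other autosomes' genes. Both were below for 290 members (34.1%), against 45.5% there as well. This contrast chose the chromosome, so nothing is read from those shares.

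The share of all counts that fell on chromosome 7 gave a different picture from the median gene. It was 7.99% in skin, 10.3% and 10.1% in papilloma 1 and papilloma 2, 7.70% in the tumour, 6.95% in mSCC-20 and 6.38% in mSCC-38. The 31 epidermal and kallikrein members alone took 0.889% in skin and 3.43% and 3.25% in the papillomas. Without them the share was 7.10% in skin, 6.84% and 6.83% in the papillomas and 7.12% in the tumour. The larger share of counts in the papillomas thus lay in these 31 genes. Without the epidermal, muscle, adipocyte, hair, pigment and immune lists the median shift was 0.20. That left 775 of 850 members, and the removed lists lay on both sides of skin, so a median could hardly move. The part of tissue composition in the shift was not tested.

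Length and base composition differed between the chromosomes and RNA integrity between the libraries. Chromosome 7 members had a median model length of 2578 bases and a median transcript GC content of 53.7%, against 2952.5 bases and 50.3% on the other autosomes. In 3 classes of length of equal size (cut on all autosomal members, shortest to longest) the papilloma shift was 0.19, 0.22 and 0.14, and in 3 such classes of GC content 0.22, 0.22 and 0.25. The part of RNA integrity in the shift was not tested. With a minimum of 50 CPM the shift was 0.30, and with no minimum it was 0.13. The reference also set its size: it was 0.21 against the tumour, and 0.32 against both cultures (0.22 against mSCC-20 and 0.41 against mSCC-38).

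Along the chromosome, the papillomas stood above skin in nearly every window, and the tumour stood furthest above it near the end. Of 14 windows of 10 Mb with at least 20 members, 13 had both papillomas above 0. The exception, from 90 Mb, held 25 members at -0.03 in papilloma 1 and 0.16 in papilloma 2. In the window from 20 Mb (112 members) the medians were 0.34 and 0.22 in the papillomas, -0.24 in the tumour, -0.36 in mSCC-20 and -0.51 in mSCC-38. The neighbouring window from 30 Mb (68 members) was near the autosomal level in the papillomas, at 0.02 and 0.04, and at -0.40 in the tumour. In the window from 50 Mb, which holds the kallikrein cluster, 92 members had medians of 0.37, 0.28 and -0.18 in papilloma 1, papilloma 2 and the tumour. The windows from 40 Mb and from 60 Mb held 3 and 7 members and are left out of these counts.

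The last window, from 150 Mb, was the highest of all 200 autosomal windows with at least 20 genes in both papillomas and in the tumour. It holds Ccnd1 and had medians of 0.94 in papilloma 1, 0.67 in papilloma 2, 1.40 in the tumour, 0.52 in mSCC-20 and 0.50 in mSCC-38 over 21 members. In the tumour, the window from 140 Mb, which holds Hras1, was the second highest of the 200, at 0.79 over 77 members, and the window from 130 Mb the 12th, at 0.57 over 107. Of the 15 highest windows in the tumour, 9 were on chromosome 1 and 3 on chromosome 7. In the papillomas the Hras1 window was at 0.18 and 0.25, close to the whole-chromosome value.

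**Figure D2:**
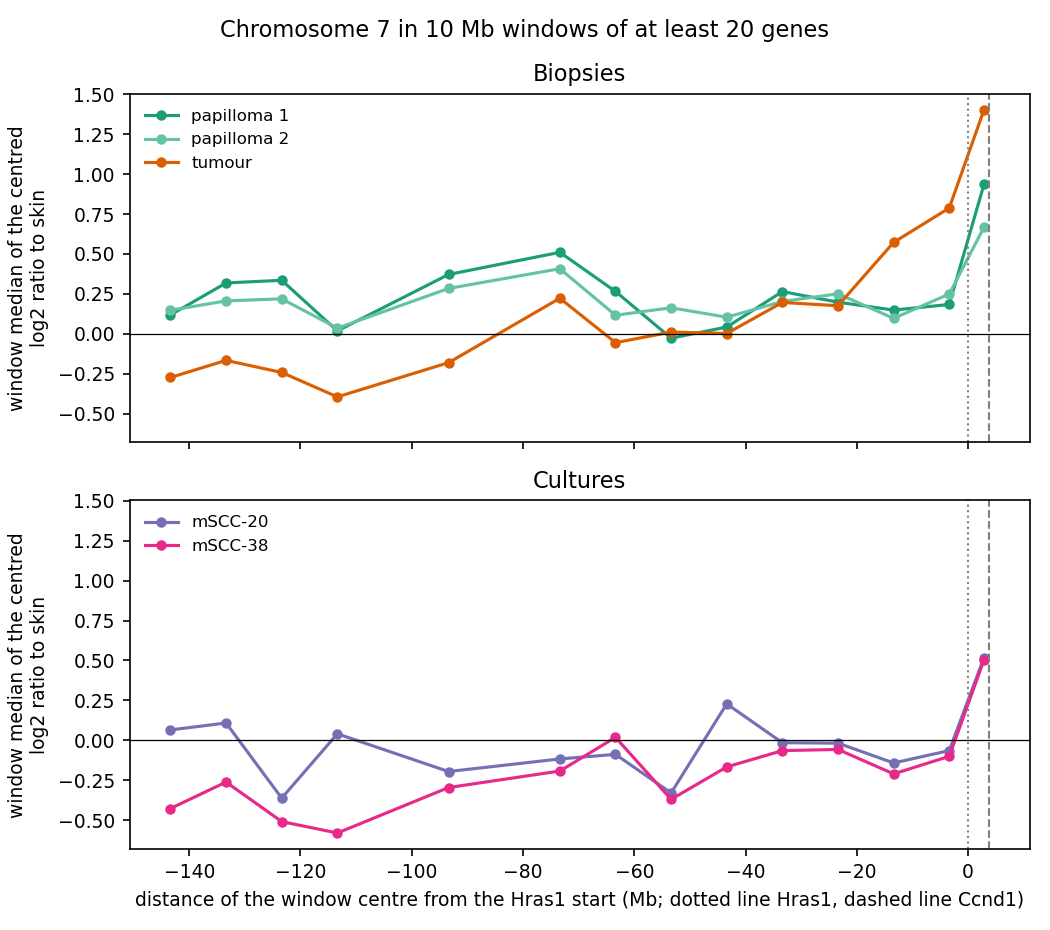
Median centred log2 ratio to skin (y axis) of 10 Mb windows with at least 20 genes, placed by the distance of the window centre from the start of Hras1 (x axis, Mb), with the biopsies above and the cultures below. The papilloma lines stay above 0 in 13 of 14 windows, whereas the tumour line is above 0 in 8 of the 14, below 0 in the windows nearest the centromere, and at 1.40 in the last window.

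A step in the tumour near 130 Mb divided the chromosome, and this boundary was chosen after the window values were seen. In windows of 5 Mb the tumour median was 0.85 from 120 Mb (15 members), 0.00 from 125 Mb (38 members) and 0.55 from 130 Mb (67 members), then 0.60, 1.02 (16 members), 0.54 and 1.40 from 135 Mb to the end. The thinly filled window from 120 Mb was thus high before the step, and it was also high in the papillomas, at 0.87 and 0.62. From 130 Mb on, 205 members had a tumour median of 0.72, and the 645 members before it a median of -0.12, a difference of 0.85. A tumour ratio above 0 was found for 161 of the 205 (78.5%) and 284 of the 645 (44.0%). The same division gave -0.02 in papilloma 1, 0.05 in papilloma 2, -0.00 in mSCC-20 and 0.11 in mSCC-38. Taking the last 24.1% of genes on each of the other 18 autosomes, no difference in the tumour was as large. The next in size was -0.28, on chromosome 1 and on chromosome 11. That share was set by the chromosome 7 boundary, and no cut was placed on the windows of the other autosomes. The first place of chromosome 7 was therefore favoured by the choice of boundary. The near-zero tumour median of the whole chromosome thus joined a long first part below 0 and an end above it.

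The difference was of like size without the epidermal, immune and other tissue lists (0.86) and without the last window (0.75). Most members stayed in without those lists, and the part of tissue composition was not tested. It lay between 0.68 and 1.14 in the classes of length and between 0.62 and 0.93 in those of GC content. The single tumour gives it no replicate.

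**Figure D3:**
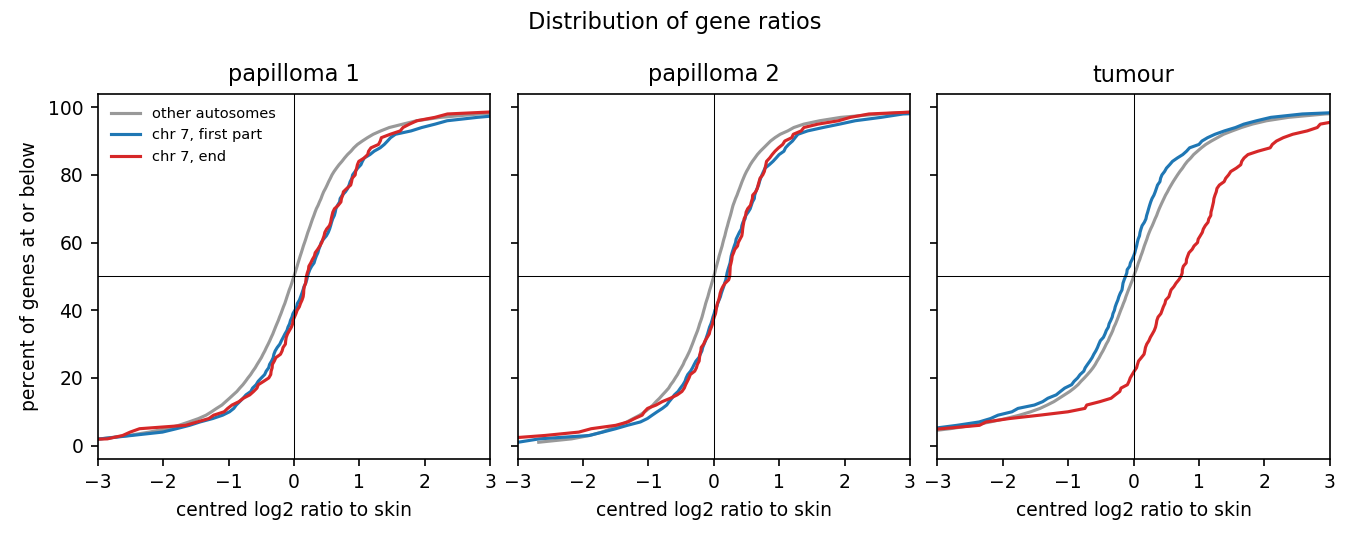
Percent of genes (y axis) at or below each centred log2 ratio to skin (x axis) in papilloma 1, papilloma 2 and the tumour, for the other autosomes in grey, chromosome 7 before 130 Mb in blue and from 130 Mb on in red. In the papillomas the 2 chromosome 7 curves run together to the right of the grey curve, and in the tumour the end of the chromosome lies far to the right (median 0.72) and the first part to the left (median -0.12).

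The tumour was compared with the papillomas by edgeR's quasi-likelihood test over 16353 genes, with Benjamini-Hochberg adjustment and calls at an adjusted p under 0.05. The fit uses the 4 biopsies, and the spread between the papillomas stands in for that of the single skin and tumour libraries. Because this contrast shares the papillomas with the choice of the chromosome, lower calls on chromosome 7 are partly what that choice favours. All 850 members were tested. In the tumour 115 members were higher (13.5%) and 154 lower (18.1%), beside 11.9% higher and 10.6% lower of all genes tested, and 13.8% higher and 11.8% lower of the members of the other autosomes. The share higher on the whole chromosome was therefore near the background.

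Calls were then counted on each side of the 130 Mb boundary. The boundary was placed on the window values of this same tumour library, so these counts restate that observation gene by gene and are not separate evidence of it. From 130 Mb on, 72 of 205 members were higher in the tumour (35.1%) and 11 lower (5.37%). Before it, 43 of 645 were higher (6.67%) and 143 lower (22.2%). The median edgeR log2 fold change was 0.50 at the end, -0.35 before it and -0.02 over all genes tested. In the window from 130 Mb 34 of 107 members were higher and 5 lower, in the Hras1 window 28 of 77 and 4, and in the Ccnd1 window 10 of 21 and 2. In the window from 20 Mb 7 of 112 were higher and 32 lower, and in that from 50 Mb 3 of 92 and 29.

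**Figure D4:**
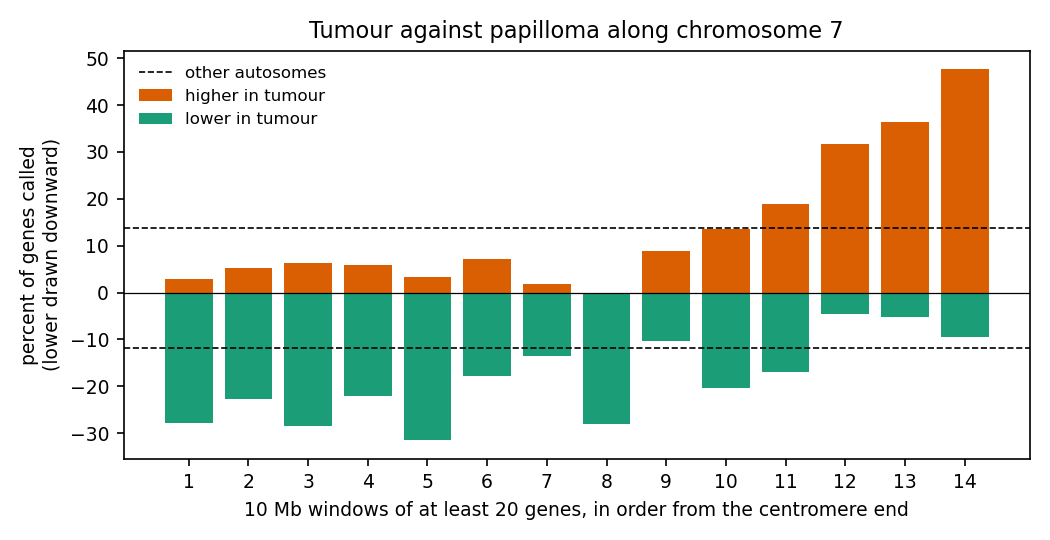
Percent of chromosome 7 members called higher (upward bars) and lower (downward bars) in the tumour than in the papillomas (edgeR adjusted p under 0.05), in 10 Mb windows of at least 20 genes from the centromere end; dashed lines are the shares among members of the other autosomes (13.8% and 11.8%). Higher calls exceed the dashed line by the most in the last 3 windows, where 72 of 205 members were called.

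Hras1 itself (mm9 chromosome 7, 148375833 to 148379903, minus strand) was above the other autosomes in both papillomas, and did not share the high tumour level of its surroundings. Its TMM-scaled level was 151 CPM in skin, 203 and 189 in papilloma 1 and papilloma 2, 183 in the tumour, 190 in mSCC-20 and 117 in mSCC-38. The papillomas were the highest biopsies and mSCC-38 the lowest library. Its centred log2 ratio was 0.36 and 0.28 in the papillomas, 0.18 in the tumour, 0.10 in mSCC-20 and -0.59 in mSCC-38. Tumour and papilloma did not differ by the test (edgeR log2 fold change -0.10 ± 0.19 SE, adjusted p = 0.721). By total counts alone it was 181 CPM in skin against 172 and 178 in the papillomas, so its direction against skin flips with the scaling, and only its place relative to the other autosomes does not. The deposited RPKM values, which divide by length and library total, were 80.4 in skin, 76.6 and 79.1 in the papillomas, 79.7 in the tumour, 83.3 in mSCC-20 and 56.0 in mSCC-38. Which allele was transcribed was not analysed here.

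The genes around Hras1 had medians of 0.19 and 0.15 in the papillomas and 0.73 in the tumour over 30 members. Both papillomas were above 0 for 20 of them and the tumour for 26, beside 56.8% and 52.4% of all chromosome 7 members. In the tumour against the papillomas 13 were higher and 0 lower (11.9% and 10.6% over all genes tested), within an end of the chromosome where 35.1% were higher. Rnh1, which encodes the ribonuclease inhibitor and lies next to Hras1, had 189 CPM in skin, 629 and 481 in the papillomas and 480 in the tumour, and 215 and 266 in mSCC-20 and mSCC-38. The papillomas and the tumour were all above skin and the cultures near it. Pkp3, which encodes a plakophilin of the desmosome, had 350 CPM in skin, 833 and 616 in the papillomas, 512 in the tumour, 195 in mSCC-20 and 55.3 in mSCC-38. Its tumour and papilloma levels did not differ by the test (edgeR adjusted p = 0.27). The 13 higher genes included the interferon-induced membrane protein genes Ifitm1, Ifitm2, Ifitm3 and Ifitm6 and the interferon regulator Irf7. Ifitm6 was at 22.5 CPM in skin, 0.563 and 0.459 in the papillomas (12 and 13 counts) and 2.63 in the tumour. It was thus higher than in the papillomas but far below skin. Ifitm6 reached the minimum mean of 5 CPM only through its skin level. Ifitm3 was at 112 CPM in skin, 175 and 159 in the papillomas and 290 in the tumour (log2 fold change 0.79 ± 0.19 SE, edgeR adjusted p = 0.0455). Irf7, which was chosen after its values were seen, went from 8.77 and 11.8 CPM in the papillomas to 170 in the tumour (4.04 ± 0.21, edgeR adjusted p = 0.00227). The Ifitm genes are closely related neighbours between which reads could be split, so their single-gene values are uncertain.

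The genes around Ccnd1, at the tip of the chromosome, were the furthest above the other autosomes among the positional lists. Their 17 members had medians of 0.94 and 0.67 in the papillomas and 1.27 in the tumour. Both papillomas were above 0 for 14, beside 56.8% of all chromosome 7 members. Ccnd1 (152115836 to 152125830, minus strand) encodes cyclin D1, which drives cells out of the first gap phase of the cycle. It was at 145 CPM in skin, 481 and 506 in the papillomas, 1419 in the tumour, 982 in mSCC-20 and 703 in mSCC-38. Every lesion and culture was above skin, and the tumour was the highest library. Ccnd1 rose from papilloma to tumour (edgeR log2 fold change 1.52 ± 0.23 SE, adjusted p = 0.0146). The others that rose there, chosen after their values were seen, included its neighbours Oraov1 (1.31), Nadsyn1 (1.71), Fadd (0.66), which encodes the adaptor of death receptors, Cttn (0.99), which encodes the actin-binding protein cortactin, and Phlda2 (0.89). Cttn went from 81.7 CPM in skin to 244 and 195 in the papillomas and 438 in the tumour. With Ccnd1, 6 of the 17 rose and 2 fell (Slc22a18 and Mrgprf), beside 11.9% and 10.6% of all genes tested and 35.1% and 5.37% of the end of the chromosome. Dhcr7, the last enzyme of cholesterol synthesis, lies in the same block and did not follow: it was at 133 CPM in skin, 189 and 198 in the papillomas and 183 in the tumour (edgeR adjusted p = 0.771). Nap1l4, which encodes a nucleosome assembly protein, had 228 and 201 CPM in the papillomas and 275 in the tumour (edgeR adjusted p = 0.269).

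Ras and growth factor genes of the chromosome were mixed. The 25 members had medians of 0.20 and 0.00 in the papillomas, 0.26 in the tumour, -0.15 in mSCC-20 and -0.41 in mSCC-38. Both papillomas were above 0 for 13 and below for 12, beside 56.8% and 34.1% of all chromosome 7 members. Mapk3, which encodes the kinase ERK1 downstream of Ras, was at 146 CPM in skin, 300 and 238 in the papillomas, 288 in the tumour, 25.2 in mSCC-20 and 124 in mSCC-38. The biopsies with lesions were above skin and the cultures below it. Cd81, a tetraspanin gene, was at 179 CPM in skin, 689 and 557 in the papillomas, 833 in the tumour, 181 in mSCC-20 and 555 in mSCC-38. Axl, a receptor tyrosine kinase gene, went the other way, with 187 CPM in skin, 122 and 135 in the papillomas, 170 in the tumour, 881 in mSCC-20 and 1158 in mSCC-38. None of these 3 differed between tumour and papilloma by edgeR's test (adjusted p = 0.797, 0.295 and 0.188).

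Of the 25 Ras and growth factor members, 6 rose and 1 fell from papilloma to tumour, beside 11.9% and 10.6% of all genes tested. Some members, such as Mapk3 and Cd81, lie beyond 130 Mb, where 35.1% rose and 5.37% fell. The growth factor gene Igf2 had 8.73 CPM in skin, 4.41 and 2.83 in the papillomas, 44.4 in the tumour, 0.0974 in mSCC-20 and 0.694 in mSCC-38 (edgeR log2 fold change 3.62 ± 0.30 SE, adjusted p = 0.00426). Igf2 reached the minimum mean of 5 CPM only through its tumour level. Tgfb1, a cytokine gene, was at 22.9 CPM in skin, 45.6 and 41.0 in the papillomas, 102 in the tumour and 160 in mSCC-38 (1.23, edgeR adjusted p = 0.00864). Rras2, a GTPase gene of the Ras family, was at 28.6 CPM in skin, 75.9 and 88.3 in the papillomas, 143 in the tumour and 225 and 165 in mSCC-20 and mSCC-38 (0.79, edgeR adjusted p = 0.0382). These 3 and the remaining risen genes Ptpre (1.14), Gab2 (0.98) and Ilk (0.90) were chosen after their values were seen, as was Arhgap33, which fell by 1.47.

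Cell cycle and DNA repair genes stood further above the other autosomes than the chromosome as a whole. Their 26 members had medians of 0.94 and 0.83 in the papillomas, 0.76 in the tumour, 1.47 in mSCC-20 and 1.23 in mSCC-38. Both papillomas were above 0 for 22, beside 56.8% of all chromosome 7 members. Cell cycle genes of the other autosomes were not compared, so these levels cannot be tied to this chromosome. Mki67, the gene of the proliferation antigen Ki-67, was at 127 CPM in skin, 222 and 241 in the papillomas, 267 in the tumour, 686 in mSCC-20 and 566 in mSCC-38. Rrm1, the large subunit of ribonucleotide reductase, was at 95.9 CPM in skin, 270 and 218 in the papillomas, 177 in the tumour, 631 in mSCC-20 and 483 in mSCC-38. Both were lowest in skin and highest in the cultures. From papilloma to tumour 3 of the 26 rose, namely Ccnd1, Fadd and Tubgcp2, and 2 fell, namely Bcl3 and Prc1, which is near the 11.9% and 10.6% of all genes tested.

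Genes used by every cell had both papillomas above 0 in the largest share of the 12 lists. Of 36 proteasome, transcription, splicing and trafficking members, both papillomas were above 0 for 34 and below for 2. Among all chromosome 7 members those shares were 56.8% and 34.1%, and 45.5% each on the other autosomes. The papilloma values chose the chromosome, so nothing is read from the rank of this list. Its medians were 0.64 and 0.56 in the papillomas, 0.16 in the tumour, 0.67 in mSCC-20 and 0.26 in mSCC-38. Picalm, a clathrin assembly gene, was at 239 CPM in skin, 383 and 404 in the papillomas, 447 in the tumour, 319 in mSCC-20 and 424 in mSCC-38. Hnrnpl, a splicing factor gene, was at 293 CPM in skin, 405 and 377 in the papillomas, 316 in the tumour, 642 in mSCC-20 and 434 in mSCC-38. In both genes the papillomas lay close to each other and above skin, but with total-count scaling Hnrnpl was at 350.9 CPM in skin against 343 and 356 in the papillomas. The lysosomal protease gene Ctsd went further, from 824 CPM in skin to 3900 and 3252 in the papillomas and 6387 in the tumour, with 809 and 1145 in mSCC-20 and mSCC-38 (tumour against papilloma 0.83 ± 0.33 SE, edgeR adjusted p = 0.143). From papilloma to tumour 1 of the 36 rose (Ap2a2) and 2 fell (Polr2i and Nucb2), beside 11.9% and 10.6% of all genes tested.

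Genes of protein synthesis were nearly as uniform. Of 25 ribosomal protein and translation members, both papillomas were above 0 for 22 and below for 1, with medians of 0.57 and 0.45. Among all chromosome 7 members 56.8% were above in both and 34.1% below. The tumour median was -0.12, mSCC-20 was at 0.63 and mSCC-38 at -0.06. Eif4g2, a translation initiation gene, was at 1396 CPM in skin, 2375 and 2209 in the papillomas, 1994 in the tumour, 3127 in mSCC-20 and 2149 in mSCC-38. Rps3, of the small ribosomal subunit, was at 635 CPM in skin, 1195 and 1089 in the papillomas, 623 in the tumour, 1062 in mSCC-20 and 698 in mSCC-38. The papillomas were above skin and the tumour near it, without passing the test against the papillomas (edgeR adjusted p = 0.076). From papilloma to tumour 4 of the 25 fell (Rps19, Rpl18, Rpl27a and Rps15a) and 1 rose (Eif3c), beside 10.6% and 11.9% of all genes tested. Ribosomal protein genes have many processed copies, so their counts are uncertain.

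In the papillomas the same families were above the autosomal level on other chromosomes too, by less. Chromosome 7 was chosen on these papilloma values, which favours such a difference, so nothing is read from its size. Taken by symbol, a choice made after the list values were seen, 10 ribosomal protein genes on chromosome 7 had medians of 0.57 and 0.36 in papilloma 1 and papilloma 2, and 41 on the other autosomes 0.19 and 0.21. Both papillomas were above 0 for 10 of the 10 and for 30 of the 41 (73.2%). In the tumour the ribosomal medians were -0.24 on chromosome 7 and -0.25 elsewhere. For proteasome subunits, 4 on chromosome 7 had medians of 0.79 and 0.66 in the papillomas, and 32 elsewhere 0.37 and 0.25. Both papillomas were above 0 for 4 of the 4 and for 29 of the 32 (90.6%). Their tumour medians were 0.27 on chromosome 7 and 0.11 elsewhere. Part of what these lists showed in the papillomas was thus shared with the same families on other chromosomes.

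**Figure D5:**
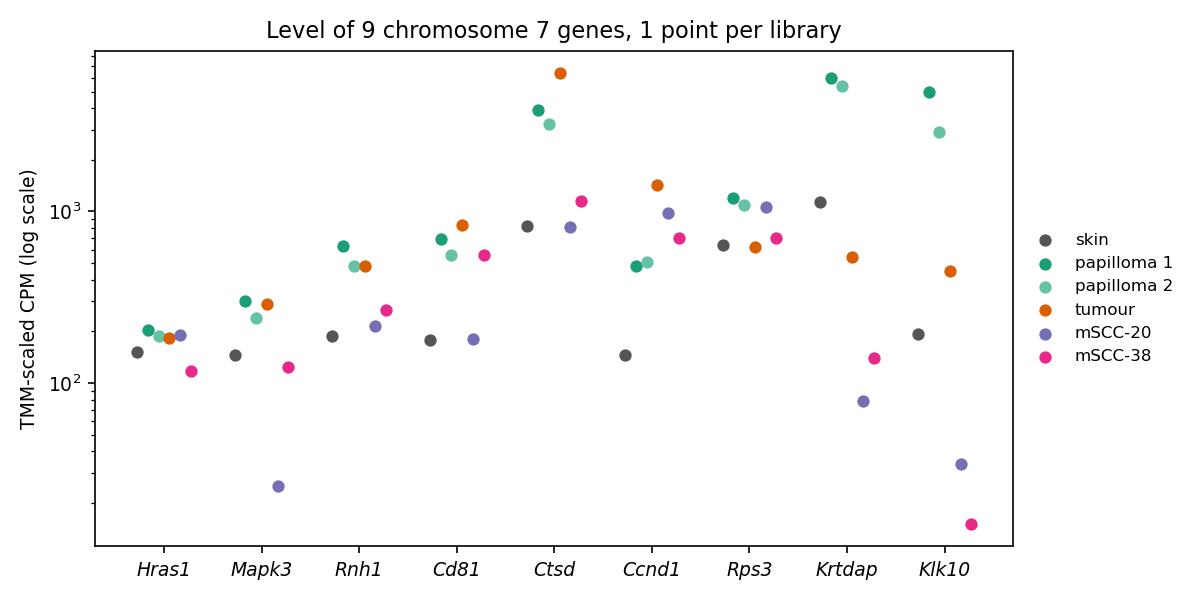
TMM-scaled level (y axis, CPM, log scale) of 9 members, with 1 point per library and no error bars because single libraries are shown. Rps3 is above skin in both papillomas and near it in the tumour, Ccnd1 climbs from 145 CPM in skin to 1419 in the tumour, and Krtdap and Klk10 are high in the papillomas and low in the cultures.

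The epidermal and kallikrein genes were far above skin in the papillomas and far below it in the cultures. Kallikreins are proteases that release cells from the skin surface, and their genes form a cluster on this chromosome. The 31 members had medians of 1.79 and 1.53 in the papillomas, 0.05 in the tumour, -2.37 in mSCC-20 and -3.24 in mSCC-38. Both papillomas were above 0 for 25, beside 56.8% of all chromosome 7 members. Krtdap, which encodes a secreted peptide of differentiating keratinocytes (31572924 to 31576102, plus strand), was at 1142 CPM in skin, 6003 and 5359 in the papillomas, 543 in the tumour, 78.6 in mSCC-20 and 141 in mSCC-38. Its neighbour Dmkn, dermokine, was at 1771 CPM in skin, 6487 and 5269 in the papillomas, 744 in the tumour, 152 in mSCC-20 and 115 in mSCC-38. In both, the papillomas were above skin and the tumour below it. Both fell from papilloma to tumour, with edgeR log2 fold changes of -3.39 ± 0.39 (SE) for Krtdap and -2.99 ± 0.41 for Dmkn (adjusted p = 0.00814 and 0.0116).

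From papilloma to tumour 20 of the 31 epidermal and kallikrein members fell and 3 rose, the latter being Saa3, Tead1 and Plekha7. Over all genes tested 10.6% fell and 11.9% rose. Klk10 was at 193 CPM in skin, 4977 and 2898 in the papillomas, 450 in the tumour, 33.8 in mSCC-20 and 15.2 in mSCC-38 (edgeR log2 fold change -3.13 ± 0.50 SE, adjusted p = 0.0168). Klk6 was at 39.4 CPM in skin, 3080 and 3780 in the papillomas, 187 in the tumour, 6.10 in mSCC-20 and 1.87 in mSCC-38 (-4.20, edgeR adjusted p = 0.00513). Klk6 was named for its high papilloma level against skin, a choice that favours a fall in this contrast. Klk5 fell furthest of all members, from 268 and 241 CPM in the papillomas to 1.78 in the tumour (-7.16 ± 0.28 SE, edgeR adjusted p = 0.00205), below its skin level of 101 CPM. Lgals7, which encodes the keratinocyte lectin galectin-7, was at 653 CPM in skin, 1914 and 2463 in the papillomas and 333 in the tumour (-2.72, edgeR adjusted p = 0.0101). The 6 members highest above skin in the papillomas were Klk14, Klk13, Klk12, Klk6, Klk9 and 9930013L23Rik. Klk12 reached the minimum mean of 5 CPM only through its papilloma levels, so its place here is favoured by that minimum. Klk14 was at 3.30 CPM in skin and at 2302 and 1431 in the papillomas, then 207 in the tumour. The keratinocyte marker sums given above were also highest in the papillomas. In the tumour that sum was above skin, with Krtdap, Dmkn, Lgals7 and Klk5 below skin and Klk10, Klk6 and Klk14 above it. In mSCC-20 the sum of 18404 CPM was close to the 17037 in skin, and all of these genes were below skin. The part of cell composition in these levels was not tested. Kallikrein genes are related neighbours and strand use in counting is not given, so single-gene values are uncertain.

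Muscle genes had medians far below skin in every other library. Their 11 members were at medians of -2.49 and -3.30 in the papillomas, -3.63 in the tumour and -6.99 and -7.42 in mSCC-20 and mSCC-38. Both papillomas were below 0 for 10 and above for none, beside 34.1% and 56.8% of all chromosome 7 members. Atp2a1, the calcium pump gene of fast muscle, was at 2968 CPM in skin, 550 and 281 in the papillomas, 124 in the tumour, 5.23 in mSCC-20 and 1.36 in mSCC-38. Ckm, the muscle creatine kinase gene, and Tnnt3, a fast troponin gene, ran in the same order, from 853 and 816 CPM in skin to 165 and 149 in papilloma 1, 102 and 83.2 in papilloma 2, and 38.6 and 42.6 in the tumour. The muscle marker sum given above, which holds Ckm, Mylpf and Tnnt3 of this chromosome, moved with them.

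Adipocyte, hair and pigment genes were sparse, with 8 members and medians of -1.18 and -0.66 in the papillomas and -1.83 in the tumour. The papillomas differed in hair-linked genes: Krtap5-4, a hair keratin-associated gene, had 28.8 CPM in skin, 0 counts in papilloma 1, 7.31 CPM in papilloma 2 and 1 count in the tumour. Crym, which encodes a thyroid hormone binding protein, was at 310 CPM in skin, 0.188 in papilloma 1, 67.9 in papilloma 2 and 0.332 in the tumour. The hair marker sum of 126 CPM in papilloma 1 and 6371 in papilloma 2 moved with both. Hamp2, Ifitm6, Thrsp and Cyp2f2 complete the 6 members lowest in the papillomas against skin. These and Krtap5-4 reached the minimum mean of 5 CPM only through their skin level, so their low place is favoured by that minimum. Cebpa, a transcription factor gene of both adipocytes and epidermis, was at 179 CPM in skin, 192 and 231 in the papillomas and 43.6 in the tumour (edgeR log2 fold change -2.29 ± 0.24 SE, adjusted p = 0.00632).

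Immune genes lay at the autosomal level in the papillomas and above it in the tumour. The 26 members had medians of 0.06 and 0.07 in the papillomas, 0.83 in the tumour, -2.21 in mSCC-20 and -1.88 in mSCC-38. From papilloma to tumour 15 rose and 1 fell (Bcl3), beside 11.9% and 10.6% of all genes tested. Some members, such as Il4ra and Ifitm3, lie beyond 130 Mb, where 35.1% rose and 5.37% fell, so position and immune identity are mixed here. Itgam, the integrin gene of macrophages and neutrophils, chosen after its values were seen, was at 11.4 CPM in skin, 15.7 and 16.2 in the papillomas and 81.0 in the tumour, and at 0.130 and 0.0905 in mSCC-20 and mSCC-38 (edgeR log2 fold change 2.34 ± 0.14 SE, adjusted p = 0.00237). Apoe, the lipid carrier gene, was at 2564 CPM in skin, 546 and 795 in the papillomas, 357 in the tumour, and 6.46 and 2.66 in the cultures. Il4ra, the interleukin 4 receptor gene, was at 68.3 CPM in skin, 340 and 371 in the papillomas, 284 in the tumour, 28.0 in mSCC-20 and 247 in mSCC-38. Immune markers summed to 1362 CPM in the tumour against 821 and 728 in the papillomas, and Itgam and Tyrobp are among the genes that list shares with the chromosome.

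Energy genes showed no common direction, and more imprinted genes were above 0 in both papillomas than below. The 20 glycolysis and mitochondrial members had medians of 0.05 and -0.01 in the papillomas and -0.28 in the tumour, with 4 higher and 3 lower in the tumour by the test, beside 11.9% and 10.6% of all genes tested. Ldha, the lactate dehydrogenase gene, stood apart, with 310 CPM in skin, 1390 and 1121 in the papillomas, 1082 in the tumour, 1226 in mSCC-20 and 1315 in mSCC-38. Aldoa, an aldolase gene of the same pathway, was at 1950 CPM in skin, 2042 and 1542 in the papillomas and 2197 in the tumour. Of 15 imprinted members both papillomas were above 0 for 9 and below for 4, beside 56.8% and 34.1% of all chromosome 7 members. Their medians were 0.55, 0.52 and 0.36 in papilloma 1, papilloma 2 and the tumour. Of the 15 imprinted members 4 rose in the tumour (Igf2, Inpp5f, Kcnq1ot1 and Phlda2) and 2 fell (Ampd3 and Slc22a18), beside 11.9% and 10.6% of all genes tested. Some members, such as Cd81 and Nap1l4, lie beyond 130 Mb, where 35.1% rose and 5.37% fell. Kcnq1ot1 overlaps Kcnq1 on the opposite strand and cannot be told apart from it here.

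The members that rose most from papilloma to tumour were Tmc5, Apobr, Pde3b and Acsm3. Tmc5, a transmembrane channel-like gene, was at 0.845 CPM in skin, 0.141 and 0.283 in the papillomas and 31.3 in the tumour, with 0 counts in both cultures (edgeR log2 fold change 7.13 ± 0.40 SE, adjusted p = 0.00227). Tmc5 reached the minimum mean of 5 CPM only through its tumour level, so its place here is favoured by that minimum. Apobr, a lipoprotein receptor gene, was at 4.55 and 3.36 CPM in the papillomas and 98.5 in the tumour (4.64, edgeR adjusted p = 0.00209). Pde3b, a phosphodiesterase gene, was at 5.25 and 4.84 CPM in the papillomas and 106 in the tumour (4.39, edgeR adjusted p = 0.00205). Acsm3, a fatty acid activating enzyme gene, was at 1.13 and 6.18 CPM in the papillomas and 63.8 in the tumour (4.09, edgeR adjusted p = 0.0292), and its skin level of 19.8 CPM lay between them. Of these genes only Apobr lies beyond 130 Mb. The deepest falls were those of Klk5, Cyp2b19, Cyp2g1 and C330005M16Rik. The keratinocyte cytochrome gene Cyp2b19 went from 153 CPM in skin to 52.9 and 84.0 in the papillomas and 0.997 in the tumour.

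The chromosome 7 median was lower in the highly tumorigenic culture over all members, but not among the shortest genes. In the shortest class of length (351 members) it was -0.26 in mSCC-20 and -0.20 in mSCC-38, in the middle class -0.07 and -0.22, and in the longest 0.10 and -0.15. Of the members, 77 were at least 2-fold higher in mSCC-38 than in mSCC-20 (9.06%), beside 13.4% of 11324 autosomal members, and 124 were at least 2-fold lower (14.6%), beside 11.9%, counting genes with at least 5 CPM in the higher culture. With 1 library on each side there is no replicate check. Of the named members, Mapk3 (25.2 CPM in mSCC-20 and 124 in mSCC-38), Il4ra (28.0 and 247) and Cd81 (181 and 555) were higher in mSCC-38, and Pkp3 (195 and 55.3) and Hras1 (190 and 117) were lower. Without the tissue lists the chromosome median was 0.00 in mSCC-20 and -0.16 in mSCC-38.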

How the data were processed

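The members, gene lists and comparisons were chosen with earlier results of these data known. The table deposited by the authors holds 1 whole-number raw count and 1 RPKM value per gene and library, per the file headers, and the submitters' processing notes name mm9 as its genome build. The RPKM values were used only where named. Which aligner and counter were used, and whether strand was, is not given in the sources used here. Per the labels' protocols, total RNA entered a SOLiD small RNA preparation kit.

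Counts were scaled with TMM factors from edgeR 4.0.16 (limma 3.58.1, R 4.3.3), and genes of at least 5 CPM by total counts, averaged over the 6 libraries, were kept. Ratios to skin had 0.5 CPM added to each side and were centred on the other autosomes. Tumour was tested against papilloma with edgeR's quasi-likelihood test over 16353 genes passing its default filter, Benjamini-Hochberg adjusted. The SE of a fold change is its size divided by the root of the F statistic. Its 1 residual degree of freedom comes from the papillomas, with a common dispersion of 0.0773 and 3.81 prior degrees. Scripts were tested on simulated data. DESeq2 1.42.0 was an alternative.

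Named genes were Hras1, the highest member of each 10 Mb window, the 3 highest of each list, the 6 highest and 6 lowest in papilloma against skin, and the 4 largest calls in each direction; others are said to be chosen after their values were seen. Sequences are RefSeq's of GRCm38.p6, of which 718 members matched by symbol. Some named genes are not reported here.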

Additional observations from a re-analysis of the deposited data

Results flagged for a closer look

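In 6 windows of chromosome 7 both papillomas lay above skin and the tumour below it, relative to the other autosomes. These differences between the groups were not tested, and the papillomas had chosen the chromosome. The tumour minus the papilloma mean was -0.406 (log2) in the window from 0 Mb, -0.429 from 10 Mb, -0.519 from 20 Mb, -0.422 from 30 Mb, -0.509 from 50 Mb and -0.246 from 80 Mb. All 6 lie before the step seen in the tumour at 130 Mb.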

How the results depend on the processing

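The papilloma shift of chromosome 7 stayed above 0 in all 23 alternatives, from 0.13 to 0.41 against 0.20. It was 0.18, 0.24 and 0.30 with a minimum of 1, 20 and 50 CPM, 0.13 with no minimum, 0.19 with 2 CPM added, 0.32 against both cultures, 0.22 against mSCC-20, 0.41 against mSCC-38, 0.23 as a trimmed mean, 0.22 and 0.14 in the middle and longest classes of length, and 0.22, 0.22 and 0.25 in the classes of GC content. Leaving out either papilloma gave 0.20 to 0.20. The tumour's difference across 130 Mb stayed above 0 in all 25 alternatives, all chosen after the data were seen. It was 0.80, 0.74 and 0.74 with a minimum of 1, 20 and 50 CPM, 0.68 with none, 0.80 with 2 CPM added, 0.78 against both cultures, 0.71 against mSCC-38, 0.79 against papilloma 2, 0.68, 0.90 and 1.14 in the classes of length, 0.62, 0.93 and 0.74 in those of GC content, 0.75 without the last window, and 0.71 and 0.93 with the boundary at 120 and 140 Mb. Windows of 20 Mb had both papillomas above 0 in 100% of cases, and a minimum of 20 CPM raised the share of such genes to 62.2%. Without the filter on low counts 17 members beyond 130 Mb were lower in the tumour, against 11. The other counts of calls stayed within 1.5 times. The causes of these differences were not tested.

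Without either papilloma no residual degree of freedom is left, so the tumour test could not be repeated. No paired analysis was possible because papilloma is the only group with more than 1 replicate number. Skin, tumour and each culture are single libraries, so no value of theirs has a replicate error, and a chromosome-wide value of RNA cannot separate DNA copies from expression.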
